A study of Populus x canadensis with 4 samples.

Results

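The microRNA families miR162, miR168 and miR403 were followed in leaf tissue of Populus × euramericana "Neva", a hybrid poplar, exposed to para-hydroxybenzoic acid, a phenolic acid known for slowing plant growth. The members were taken by name: every sequence of the leaf microRNA table named miR162, miR168 or miR403, under any species prefix, arm or variant suffix, with rows of the same sequence summed. They came to 16 of the 529 distinct sequences, with 4 of miR162, 6 of miR168 and 6 of miR403, listed in 25 of 738 rows. Plants raised from cuttings and kept in water culture for 90 days were treated for 3 days with 0, 2, 4 or 8 mM of the acid, where 0 mM is the untreated group and all groups share the cultivar and the nutrient solution. RNA of plants of the same treatment was mixed in equal parts before sequencing, so each dose is 1 library of pooled leaves. No difference below therefore has a replicate check, no p-value was computed, and variation among plants could not be measured. Sequencing depth in the table was 2640653, 4998878, 6369127 and 5310499 reads, in the order 0, 2, 4 and 8 mM. The 16 sequences together held 1.62%, 0.925%, 0.796% and 1.09% of those reads, in dose order. All levels are the authors' normalized read counts, which are raw reads times 1 factor per library, and intervals are exact 95% intervals. They cover counting error only, and reads copied by PCR are not independent molecules. Every ratio to 0 mM rests on the same single untreated library. That library also had the lowest depth, and 0.526% of its reads were 18 nt long, against 0.0432%, 0.0694% and 0.0865% of the reads at 2, 4 and 8 mM. The part of these differences in the results was not tested. Another scaling, equal table totals, sets each library to the same number of reads in the table, and relative to the authors' values it moves every log2 ratio to 0 mM by -0.46, -0.57 and -0.40 at 2, 4 and 8 mM.

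All 3 families act on the pathway that makes and uses small RNA. DICER-LIKE 1 (DCL1) cuts a microRNA duplex out of a folded precursor, and ARGONAUTE 1 (AGO1) keeps one strand of it to find target transcripts. miR162 targets the transcript of DCL1, miR168 targets that of AGO1, and miR403 targets that of AGO2, an Argonaute known from antiviral defence, so each family is part of a loop in which the pathway limits its own components. These roles were worked out mainly in Arabidopsis thaliana. In all 3 families the mature strand begins with U, the 5′ base that AGO1 prefers, and the other strand of the duplex is normally the scarcer one.

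The mature and other-arm sequences of each family are shown first because the levels below differ between them. Capitals mark bases 2 to 8, the seed, and T stands for U as in the deposited table.
ptc-miR162a: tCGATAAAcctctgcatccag
ptc-MIR162b-p5: gGAGGCAGcggttcatcgatc
ptc-miR168a-5p: tCGCTTGGtgcaggtcgggaa
ptc-miR168a-3p: cCCGCCTTgcatcaactgaat
ptc-miR403a: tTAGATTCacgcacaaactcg
ptc-miR403c-5p: tTTGTGCGtggatctgaggcc
ptc-MIR403b-p5: tTTGTTCGtggatctgacgcc
ptc-MIR403a-p5: gGTTTGTGcatgaatctaata
The prefix ptc stands for Populus trichocarpa, and the p5 sequence of miR162 is listed under both ptc-MIR162a-p5 and ptc-MIR162b-p5. All 8 of these sequences are 21 nt long. Paired without gaps, ptc-miR162a and its p5 sequence overlapped over 19 positions with 16 Watson-Crick pairs and left 2 bases free at each 3′ end, the overhang typical of a Dicer product. ptc-miR168a-5p and ptc-miR168a-3p gave 14 Watson-Crick and 3 G-U pairs over 19 positions, again with 2 free bases at each 3′ end. ptc-miR403a paired with ptc-MIR403a-p5 in the same register, with 17 Watson-Crick pairs and 1 G-U pair over 19 positions. With ptc-miR403c-5p, the abundant 5p form, it overlapped over 17 positions, of which 15 were Watson-Crick and 2 G-U pairs, and each 3′ end had 4 free bases. ptc-MIR403b-p5 differs from ptc-miR403c-5p at 2 of 21 positions, G6T and G18C, counted from 1 at the 5′ end with the base of ptc-miR403c-5p first. No sequence outside these families carried the seed of any member.

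Of the 16 sequences, 3 are the mature forms, 6 are end variants of them, 5 are other-arm sequences, 1 is an end variant of an other-arm sequence and 1 belongs to neither arm. Members named after other species numbered 8. A filter on the mean over the libraries, set at 10 normalized read counts, kept 15 of the 16 and left out gma-miR403a_1ss21GT. Near-identical loci of a family give the same mature sequence, so the genes behind a sequence cannot be separated here.

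**Figure D1:**
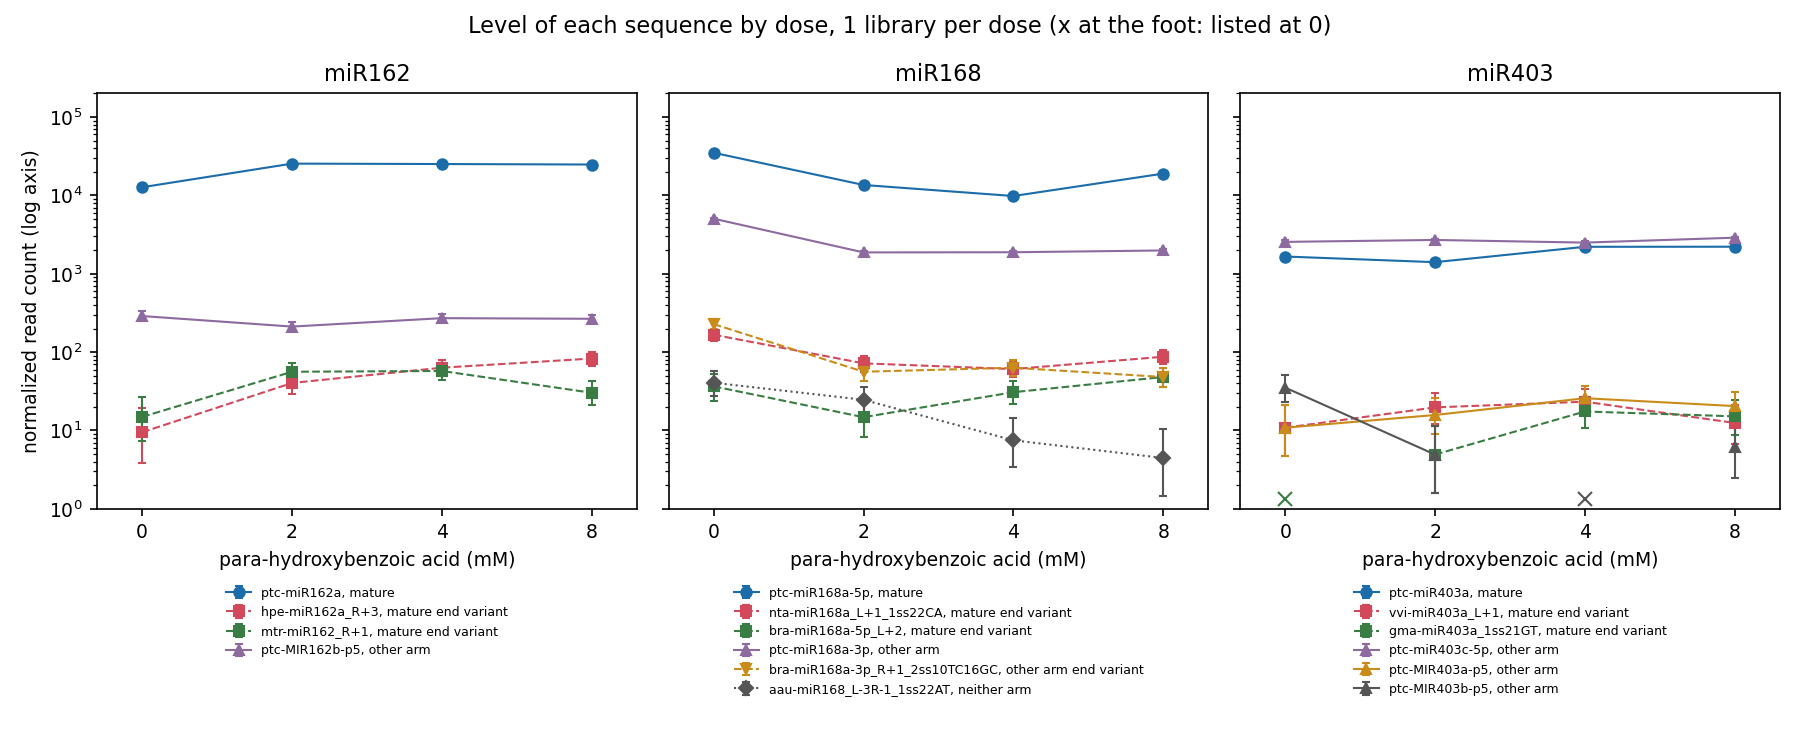
Level of each of the 16 sequences (normalized read count, log axis) against the dose of para-hydroxybenzoic acid (mM, evenly spaced), in 1 panel per family. Each point is 1 library, bars are exact 95% Poisson intervals, and an x at the foot marks a sequence listed at 0; ptc-miR162a was higher at 2, 4 and 8 mM than at 0 mM, ptc-miR168a-5p was lowest at 4 mM, and ptc-miR403c-5p lay above ptc-miR403a at every dose.

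The total of miR162 was higher in all 3 treated libraries, and the 3 treated values of its mature form differed from each other by a few percent. The mature form ptc-miR162a had 12726, 25478, 25168 and 24813 normalized read counts in dose order. The untreated library is the low one, and the treated libraries lie within a narrow band. The fold over 0 mM was 2.00 (1.96 to 2.05) at 2 mM, 1.98 (1.93 to 2.02) at 4 mM and 1.95 (1.90 to 2.00) at 8 mM. Between treated doses the ratio was 0.988 for 4 over 2 mM (0.972 to 1.00), 0.986 for 8 over 4 mM (0.970 to 1.00) and 0.974 for 8 over 2 mM (0.958 to 0.991). These small ratios depended on the scaling, and under equal table totals they were 0.918, 1.10 and 1.01. Under equal table totals the miR162 total was 1.44-fold, 1.32-fold and 1.46-fold higher at 2, 4 and 8 mM, against 1.98-fold, 1.96-fold and 1.93-fold by the authors' values.

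The other strand of miR162 did not share that difference. ptc-MIR162b-p5, the strand that is normally discarded, had 288.9 normalized read counts at 0 mM and 212, 271.5 and 266.5 at 2, 4 and 8 mM. It was 1.36-fold lower (1.12 to 1.65) at 2 mM, and its intervals included no difference at 4 mM, with a ratio of 0.940 (0.788 to 1.12), and at 8 mM, with 0.923 (0.771 to 1.11). Under equal table totals it was 1.58-fold lower (1.32 to 1.88) at 4 mM and 1.43-fold lower (1.20 to 1.71) at 8 mM. Strands of a duplex are cut from the same hairpin, and their ratio within a library needs no scaling between libraries. The library at 0 mM held 44.1 reads of ptc-miR162a per p5 read (38.5 to 50.7), and the libraries at 2, 4 and 8 mM held 120.2 (105.1 to 138.1), 92.7 (83.1 to 103.7) and 93.1 (83.1 to 104.7). Set against 0 mM, this strand ratio was 2.73 times as high at 2 mM (2.24 to 3.32), 2.10 times (1.76 to 2.51) at 4 mM and 2.11 times (1.76 to 2.53) at 8 mM. The p5 values rest on 213, 215, 326 and 299 reads, in dose order.

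miR162 also has a pair of forms that are longer at the 3′ end, shown because their shares of the miR162 reads differed between doses. Capitals mark the added bases.
hpe-miR162a_R+3: tcgataaacctctgcatccagTTT
mtr-miR162_R+1: tcgataaacctctgcatccagA
Both keep the seed of ptc-miR162a. Whether the added bases are written in the hairpin or were added after cutting was not examined here. The 24 nt form hpe-miR162a_R+3 had 7, 41, 76 and 93 reads at 0, 2, 4 and 8 mM, or 9.49, 40.4, 63.3 and 82.9 normalized read counts. It was higher at each step of dose, and at 8 mM it was 8.73-fold above 0 mM (4.07 to 22.3). The interval of the last step, 8 over 4 mM, included no difference (0.957 to 1.797) by the authors' values and started at 1.07 under equal table totals. That of 4 over 2 mM started at 1.06 by the authors' values and included no difference (0.982 to 2.18) under equal table totals. As a share of its own and the ptc-miR162a reads, the 24 nt form made up (with Wilson 95% intervals) 0.0745% (0.0361 to 0.154) at 0 mM, 0.158% (0.117 to 0.215) at 2 mM, 0.251% (0.200 to 0.314) at 4 mM and 0.333% (0.272 to 0.408) at 8 mM. The intervals at 4 and 8 mM lie wholly above that of 0 mM. The 22 nt form mtr-miR162_R+1 had 14.9, 56.2, 57.5 and 30.3 normalized read counts, highest at the middle doses, and at 8 mM it was 1.90-fold lower (1.24 to 2.95) than at 4 mM. Its share went no further than 0.228% (0.180 to 0.288), at 4 mM, and at 8 mM it was 0.122% (0.0873 to 0.170), close to the 0.117% of 0 mM (0.0654 to 0.210).

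The total of miR168 was lower in every treated library, and its 2 strands differed from each other most at the highest dose. In dose order, ptc-miR168a-5p, the strand that guides AGO1 to its own transcript, had 35066, 13605, 9830 and 18996 normalized read counts. The highest value is that of the untreated library and the lowest is that of 4 mM. Set against 0 mM it was 2.58-fold lower (2.52 to 2.63) at 2 mM, 3.57-fold lower (3.49 to 3.65) at 4 mM and 1.85-fold lower (1.81 to 1.88) at 8 mM. At 8 mM it was 1.93-fold higher (1.89 to 1.98) than at 4 mM. The other strand, ptc-miR168a-3p, had 5049 normalized read counts at 0 mM and 1874, 1884 and 1986 at 2, 4 and 8 mM. It was 2.69-fold lower (2.55 to 2.85) at 2 mM, 2.68-fold lower (2.54 to 2.83) at 4 mM and 2.54-fold lower (2.41 to 2.68) at 8 mM. For 8 over 4 mM its ratio was 1.05 (0.994 to 1.12), beside the 1.93 of the 5p strand, and under equal table totals it was 1.18 (1.11 to 1.25).

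The ratio of the strands within each library shows the same contrast without any scaling. Reads of ptc-miR168a-5p per read of ptc-miR168a-3p came to 6.94 (6.71 to 7.19) at 0 mM, 7.26 (6.92 to 7.62) at 2 mM, 5.22 (4.99 to 5.46) at 4 mM and 9.57 (9.16 to 9.997) at 8 mM. The ratio at 8 mM was 1.83 times (1.72 to 1.95) the ratio at 4 mM, and the ratio at 2 mM was 1.05 times (0.985 to 1.11) the ratio at 0 mM. Equal table totals widen the deficit of the miR168 total, to 3.57-fold, 5.06-fold and 2.53-fold lower at 2, 4 and 8 mM.

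**Figure D2:**
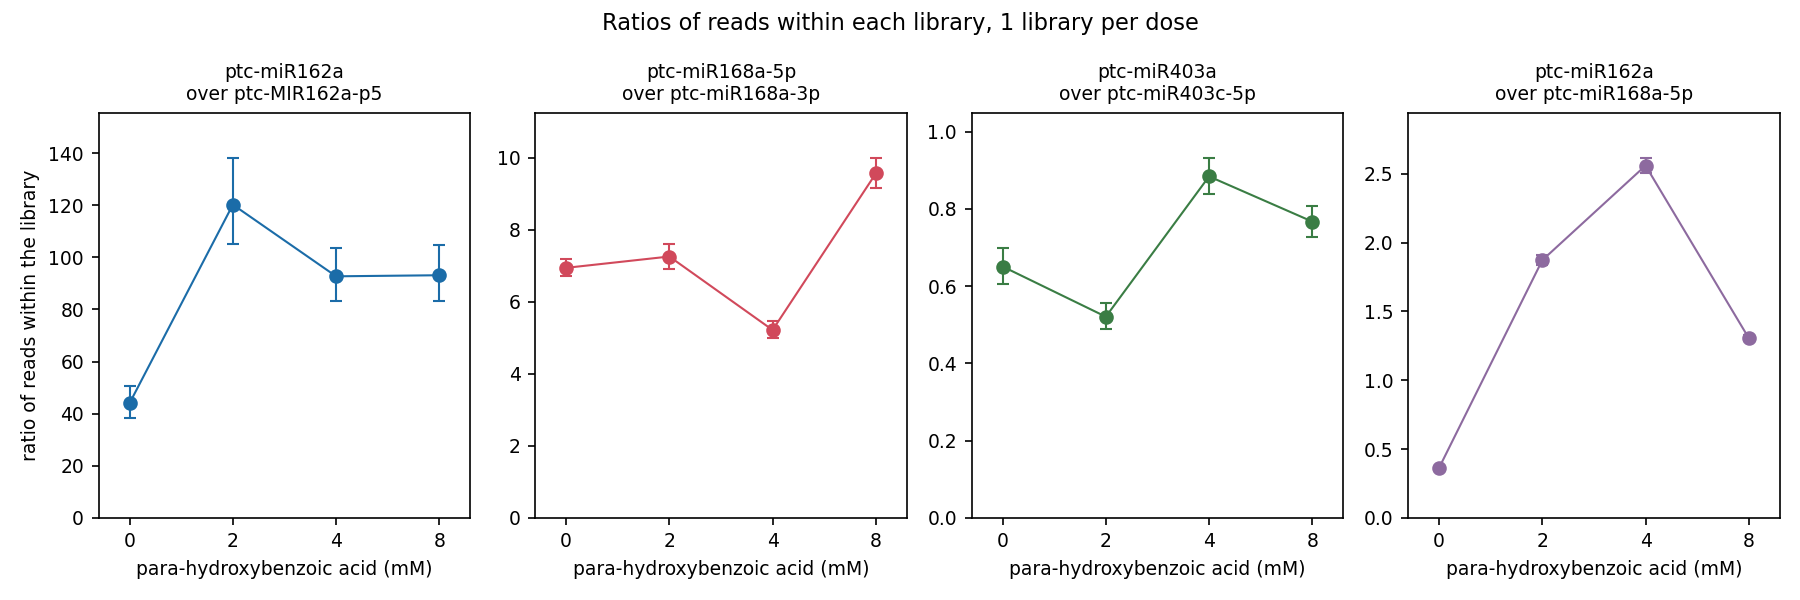
Ratio of reads of 2 sequences within each library against dose (mM, evenly spaced). The panels are the strands of miR162 and miR168, ptc-miR403a over ptc-miR403c-5p, and ptc-miR162a over ptc-miR168a-5p. Each point is 1 library and bars are exact 95% intervals for counting error; the miR162 strand ratio is above its 0 mM value at every treated dose, the miR168 strand ratio is lowest at 4 mM and highest at 8 mM, and ptc-miR162a over ptc-miR168a-5p is below 1 only at 0 mM.

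Forms of miR168-5p that begin earlier are shown because their seed is shifted. Capitals mark the bases added at the 5′ end.
nta-miR168a_L+1_1ss22CA: Ctcgcttggtgcaggtcgggaa
bra-miR168a-5p_L+2: TCtcgcttggtgcaggtcgggaa
The 22 nt form nta-miR168a_L+1_1ss22CA had 166.8, 72.0, 60.8 and 87.3 normalized read counts at 0, 2, 4 and 8 mM, in the same order of libraries as ptc-miR168a-5p. It made up 0.473% (0.397 to 0.565), 0.526% (0.419 to 0.661), 0.615% (0.489 to 0.772) and 0.458% (0.376 to 0.557) of the reads of both, intervals that all overlap. The 23 nt form bra-miR168a-5p_L+2 had 36.6, 14.8, 30.8 and 48.1 normalized read counts, on 27, 15, 37 and 54 reads. It was 2.48-fold lower (1.27 to 5.01) at 2 mM than at 0 mM, but at 8 mM its ratio to 0 mM was 1.31 (0.814 to 2.17), a direction that turned under equal table totals, with a log2 ratio of -0.0080. Its share was 0.104% (0.0717 to 0.152) and 0.109% (0.0658 to 0.179) at 0 and 2 mM, and 0.313% (0.227 to 0.430) and 0.253% (0.194 to 0.330) at 4 and 8 mM. On the 3p side, bra-miR168a-3p_R+1_2ss10TC16GC, which is ptc-miR168a-3p with 1 more T at its 3′ end, had 227.8, 56.2, 63.3 and 48.1 normalized read counts. It was 4.05-fold lower (2.99 to 5.58) at 2 mM, 3.60-fold lower (2.73 to 4.78) at 4 mM and 4.73-fold lower (3.46 to 6.56) at 8 mM. Its share of the reads of both 3p forms was 4.32% (3.72 to 5.003) at 0 mM and 2.91% (2.25 to 3.75), 3.25% (2.60 to 4.05) and 2.37% (1.82 to 3.07) at 2, 4 and 8 mM.

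The sixth sequence under the miR168 number matches neither strand as written. It is shown with ptc-miR168a-3p because 18 of its 20 bases, in capitals, are the exact reverse complement of the capitals in that strand.
aau-miR168_L-3R-1_1ss22AT: CAGTTGATGCAAGGCGGGtt
ptc-miR168a-3p: CCCGCCTTGCATCAACTGaat
Its level was 40.7, 24.6, 7.50 and 4.46 normalized read counts at 0, 2, 4 and 8 mM, on 30, 25, 9 and 5 reads. The values lie lower at each dose. The intervals against 0 mM left out a ratio of 1 at 4 mM (5.43-fold lower, 2.51 to 13.0) and at 8 mM (9.13-fold lower, 3.51 to 30.1), and at 2 mM the interval of the ratio ran from 0.342 to 1.07, or from 0.248 to 0.774 under equal table totals. Unlike ptc-miR168a-5p, it was not higher at 8 than at 4 mM, where its ratio was 0.595 (0.157 to 1.98). A difference between these 2 low counts was not detectable at this depth.

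**Figure D3:**
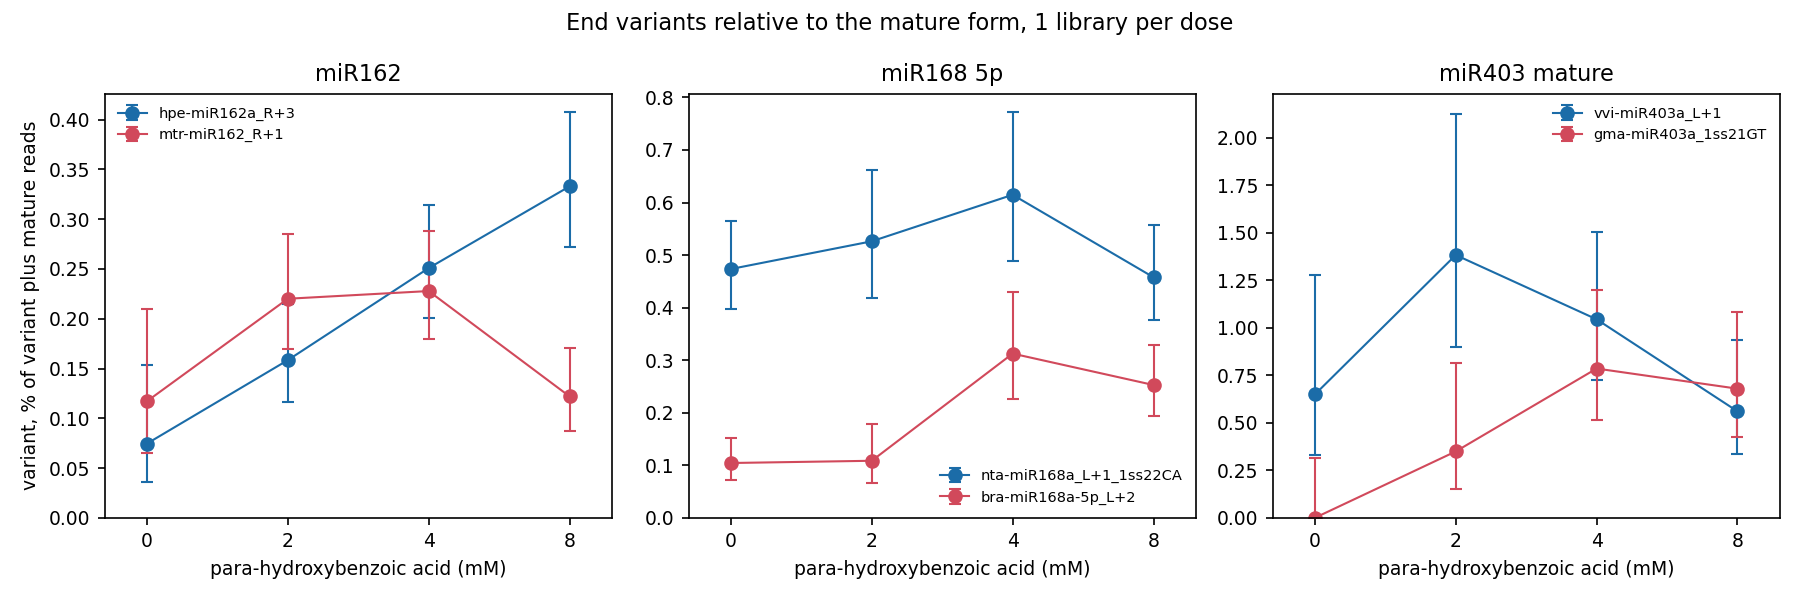
Share of each end variant in its own reads plus those of the mature form (%), against dose (mM, evenly spaced), for miR162, miR168-5p and miR403. Each point is 1 library and bars are Wilson 95% intervals. hpe-miR162a_R+3 lies higher at each dose, up to 0.333% at 8 mM, with intervals that overlap between neighbouring doses. bra-miR168a-5p_L+2 lies at 0.313% and 0.253% at 4 and 8 mM.

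miR403 was the least abundant family and, by the authors' values, the one whose total differed least from 0 mM. Its 5p arm, mostly ptc-miR403c-5p, held more reads than the mature arm at every dose. The 5p sequence that paired with ptc-miR403a in the register of the other duplexes, ptc-MIR403a-p5, was far scarcer. It had 8, 16, 31 and 23 reads in dose order, against 1225, 1427, 2654 and 2486 of ptc-miR403a. Whether ptc-miR403a and ptc-miR403c-5p are strands of the same duplex was not tested. ptc-miR403c-5p had 2554, 2702, 2501 and 2890 normalized read counts at 0, 2, 4 and 8 mM, highest at 8 mM and lowest at 4 mM. Its ratio to 0 mM was 1.06 (0.997 to 1.12) at 2 mM, 0.979 (0.924 to 1.04) at 4 mM and 1.13 (1.07 to 1.20) at 8 mM, and under equal table totals the log2 ratios at 2 and 8 mM turned to -0.38 and -0.22 and that at 4 mM was -0.60. At 8 mM it was 1.07-fold higher (1.02 to 1.13) than at 2 mM and 1.16-fold higher (1.10 to 1.21) than at 4 mM. The mature strand ptc-miR403a, which targets AGO2, had 1661, 1407, 2210 and 2216 normalized read counts. It was 1.18-fold lower (1.09 to 1.28) at 2 mM, 1.33-fold higher (1.24 to 1.42) at 4 mM and 1.33-fold higher (1.24 to 1.43) at 8 mM, while under equal table totals its log2 ratio was -0.15 at 4 mM and 0.01 at 8 mM. The libraries at 4 and 8 mM are the high ones, and the ratio of 8 over 4 mM was 1.00 (0.949 to 1.06), or 1.12 (1.06 to 1.19) under equal table totals.

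Within a library, ptc-miR403a stood at 0.651 reads per read of ptc-miR403c-5p (0.605 to 0.699) at 0 mM, 0.521 (0.488 to 0.555) at 2 mM, 0.884 (0.839 to 0.931) at 4 mM and 0.767 (0.727 to 0.808) at 8 mM. At 4 mM this ratio was 1.70 times (1.56 to 1.85) its value at 2 mM. In dose order the mature arm held 39.1%, 34.5%, 47.1% and 43.5% of the miR403 reads. In miR168 it held 86.9%, 87.5%, 83.5% and 90.4%, and in miR162 it held 97.8%, 99.2%, 98.9% and 98.9%. The direction of the miR403 total at 4 and 8 mM depended on the scaling. It was 1.12-fold (1.07 to 1.17) and 1.21-fold (1.16 to 1.26) higher by the authors' values, but 1.32-fold and 1.09-fold lower under equal table totals.

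The rarer 5p sequences of miR403 differed from each other. ptc-MIR403b-p5 had 26, 5, 0 and 7 reads at 0, 2, 4 and 8 mM, or 35.3, 4.93, 0 and 6.24 normalized read counts. It was 7.15-fold lower (2.70 to 23.9) at 2 mM and 5.65-fold lower (2.39 to 15.4) at 8 mM. The sequence passed the filter only through the 0 mM library, with a mean of 3.72 without that library. Being lower than at 0 mM is therefore not independent of the filter. At 4 mM it was listed at 0, which makes it 14.1-fold lower when 3 counts are put in place of the 0 in that library. The interval itself starts at 10.7-fold. ptc-MIR403a-p5 went the other way, with 10.8, 15.8, 25.8 and 20.5 normalized read counts on 8, 16, 31 and 23 reads. It was 2.38-fold higher (1.07 to 5.99) at 4 mM, an interval that ran from 0.722 to 4.05 under equal table totals, and its intervals at 2 mM, 0.587 to 3.92, and at 8 mM, 0.816 to 4.89, included no difference.

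The variants of ptc-miR403a are shown with the added or changed bases in capitals.
vvi-miR403a_L+1: Cttagattcacgcacaaactcg
gma-miR403a_1ss21GT: ttagattcacgcacaaactTT
Counted on ptc-miR403a, gma-miR403a_1ss21GT carries C20T and G21T. At 0 mM its value is a listed 0, and the treated libraries held 5, 21 and 17 reads in dose order. With 3 counts in place of the 0 it was 1.21-fold, 4.30-fold and 3.72-fold higher at those doses. The exact intervals start lower, at 0.666, 3.20 and 2.71, and at 2 mM the interval included no difference. As a share of its own and the ptc-miR403a reads it made up 0.349% (0.149 to 0.815), 0.785% (0.514 to 1.20) and 0.679% (0.424 to 1.09), against 0% (0 to 0.313) at 0 mM. The 22 nt vvi-miR403a_L+1, whose seed is shifted by 1 base, had 8, 20, 28 and 14 reads, and its intervals against 0 mM all held a ratio of 1.

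The mature forms of miR162 and miR168 exchanged places. Both are 21 nt long, and by mean level over the 4 libraries they ranked 17 and 20 among the 529 sequences. Reads of ptc-miR162a per read of ptc-miR168a-5p came to 0.363 (0.354 to 0.372) at 0 mM, 1.87 (1.83 to 1.91) at 2 mM, 2.56 (2.51 to 2.62) at 4 mM and 1.31 (1.28 to 1.33) at 8 mM. miR168 was thus the more abundant one in untreated leaves alone, and miR162 in each of the treated libraries. The ratio was 5.16 times that at 0 mM (5.0001 to 5.33) at 2 mM, 7.05 times (6.83 to 7.28) at 4 mM and 3.60 times (3.49 to 3.71) at 8 mM. These values do not depend on the scaling between libraries. ptc-miR403a remained the scarcest mature form, with 0.0474, 0.103, 0.225 and 0.117 reads per read of ptc-miR168a-5p in dose order.

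The 15 members that passed the filter were counted by a threshold of 2-fold on log2(normalized read count + 1). At 2 mM, 3 were at least 2-fold higher than at 0 mM, where 20.9% of the 350 sequences that passed were, and 6 were at least 2-fold lower, where 23.7% were. Equal table totals gave 2 higher and 7 lower, where 12.2% and 32.6% of all sequences were. Median-of-ratios size factors gave 2 higher (19.5% of all), since the log2 ratio of ptc-miR162a, 1.00 by the authors' values, was then 0.98. The 3 are the mature form of miR162 and its longer forms, and the 6 are ptc-MIR403b-p5 and all of the miR168 sequences but aau-miR168_L-3R-1_1ss22AT. At 4 mM, 4 were higher (18.9% of all) and 6 lower (25.7%), and under equal table totals 2 were higher (10.2%) and 6 lower (36.3%). The 4 by the authors' values are the longer forms of miR162, ptc-MIR403a-p5 and vvi-miR403a_L+1, while ptc-miR162a lay just under 2-fold. At 8 mM, 1 was higher (14.9%), which is hpe-miR162a_R+3, and 4 were lower (21.4%), and under equal table totals 1 was higher (9.92%) and 6 were lower (31.4%). The 4 by the authors' values are both 3p forms of miR168, aau-miR168_L-3R-1_1ss22AT and ptc-MIR403b-p5. As shares of the 15, 20%, 26.7% and 6.67% were higher and 40%, 40% and 26.7% lower at 2, 4 and 8 mM, and the share higher at 2 mM is near that of all sequences. Strands and end variants of a family are not separate units. The counts, shares and medians of members therefore hold forms of the same duplex more than once. ptc-MIR403b-p5 passed the filter only through the 0 mM library, with a mean of 3.72 over the other 3, so its lower calls against 0 mM are not independent of the filter. Without it, 5, 5 and 3 of 14 were lower at 2, 4 and 8 mM, or 35.7%, 35.7% and 21.4%, and the share at 8 mM is that of all sequences. The median log2 ratio of the 15 was -0.44, -0.09 and 0.18 at 2, 4 and 8 mM, beside 0.04, 0.03 and -0.02 over all 350. By family they differed. For the 4 miR162 sequences the medians were 1.42, 1.43 and 0.97, or 0.97, 0.88 and 0.58 under equal table totals. For the 6 miR168 sequences they were -1.31, -1.64 and -1.14, or -1.76, -2.20 and -1.54 under equal table totals. For the 5 miR403 sequences that passed they were 0.08, 0.41 and 0.19, which turned to -0.38, -0.15 and -0.19 under equal table totals. Each sequence counts once in a median, so forms with few reads weigh as much as the mature form. Without ptc-MIR403b-p5 the miR403 medians were 0.29, 0.72 and 0.30 by the authors' values and -0.15, 0.18 and -0.09 under equal table totals.

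**Figure D4:**
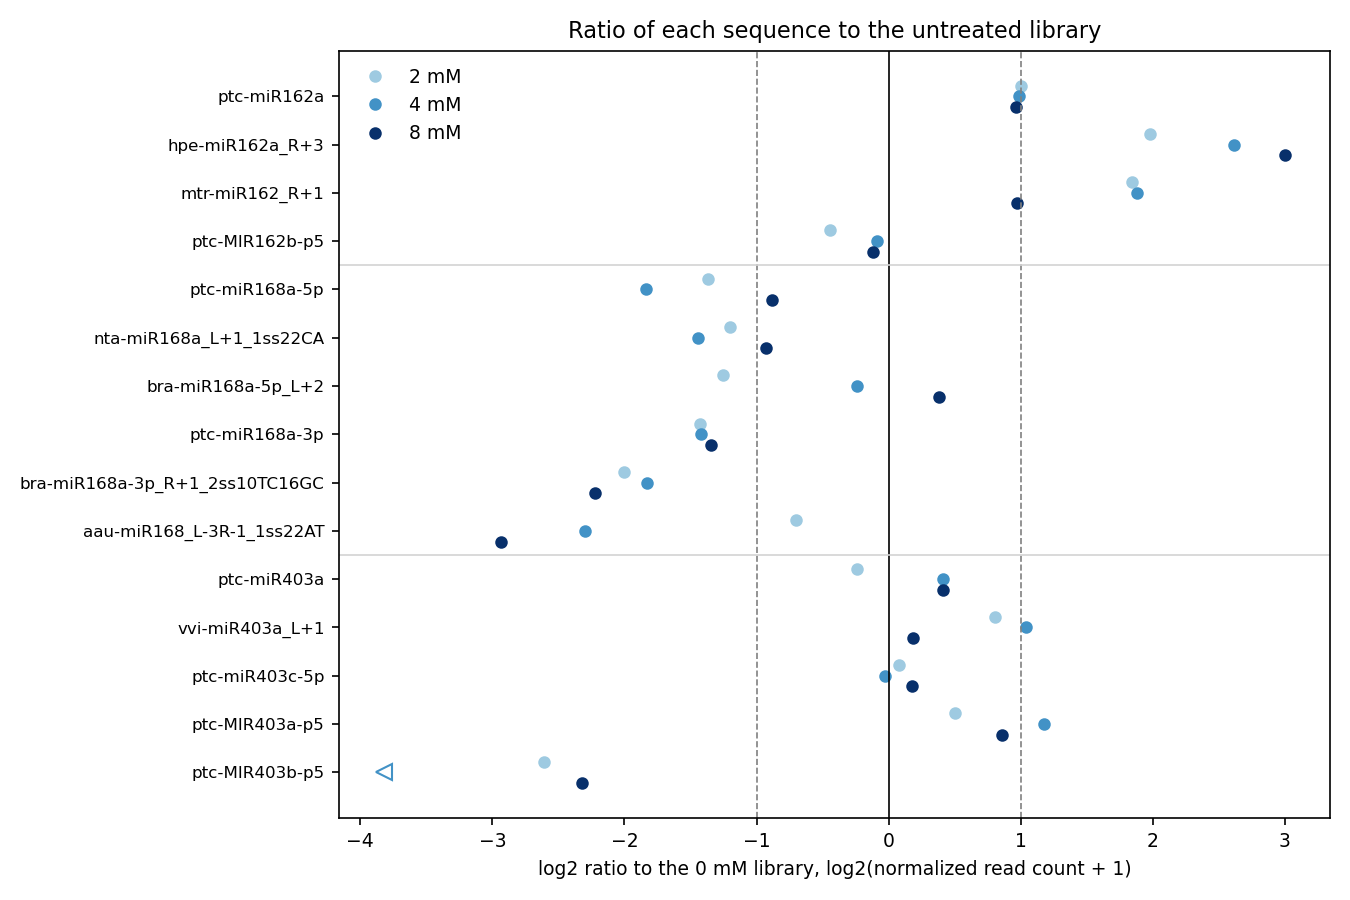
Log2 ratio to the 0 mM library, on log2(normalized read count + 1), for the 15 sequences that passed the filter, with 1 point for each of 2, 4 and 8 mM and dashed lines at 2-fold. The open triangle marks ptc-MIR403b-p5 at 4 mM, listed at 0 there and drawn at the 14.1-fold lower that 3 counts in place of the 0 give. The miR162 points other than those of the p5 strand lie to the right of 0. The miR168 points lie to the left, except bra-miR168a-5p_L+2 at 8 mM.

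Between treated doses fewer members passed 2-fold, and so did fewer of all sequences, whose shares are in brackets. The members higher were 6.67%, 6.67% and 13.3% of the 15 for 8 over 4, 4 over 2 and 8 over 2 mM. Those lower were 0%, 13.3% and 6.67%. For 8 over 4 mM, 1 was higher (8.29% of all) and 0 were lower (7.43%). The 1 is ptc-MIR403b-p5, with a listed 0 at 4 mM and both values under the filter's minimum of 10, and without it 0 were higher. For 4 over 2 mM, 1 was higher (13.7%), bra-miR168a-5p_L+2, and 2 were lower (14.6%), ptc-MIR403b-p5 and aau-miR168_L-3R-1_1ss22AT, or 1 without ptc-MIR403b-p5, whose values at 2 and 4 mM are both under that minimum. For 8 over 2 mM, 2 were higher (12.6%), hpe-miR162a_R+3 and bra-miR168a-5p_L+2, and 1 was lower (16% of all), aau-miR168_L-3R-1_1ss22AT. With 1 library per dose these are counts past a fold, not tests. Of the 16 members, 14 stand before the line in the authors' deposited table that opens the sequences without a difference at a p of 0.05. That is 87.5% of the members, beside 84.5% of all 529 sequences. The 2 after it are vvi-miR403a_L+1 and ptc-MIR403a-p5. The test behind that line is not named in the file.

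Other microRNAs tied to small RNA pathways were read from a list of 10 families, of which miR173 and miR838 had no value here. The list holds triggers of secondary small interfering RNA and families tied to Dicer-like genes. Of its 34 sequences that passed the filter, 6 (17.6%) were at least 2-fold higher and 3 (8.82%) lower at 2 mM, beside 20.9% and 23.7% of all 350. At 4 mM 6 (17.6%) were higher and 7 (20.6%) lower, beside 18.9% and 25.7%, and at 8 mM 3 (8.82%) were higher and 5 (14.7%) lower, beside 14.9% and 21.4%. Its median log2 ratio was 0.29, -0.11 and 0.07 at these doses, beside 0.04, 0.03 and -0.02 over all 350. miR1515, which targets a DCL2 transcript in soybean, had 1607, 3916, 6211 and 5643 normalized read counts at 0, 2, 4 and 8 mM. It was 2.44-fold (2.28 to 2.60), 3.86-fold (3.63 to 4.11) and 3.51-fold (3.30 to 3.74) higher than at 0 mM, so it shares with miR162 the low untreated library. Under equal table totals it was 1.77-fold, 2.61-fold and 2.66-fold higher. miR390, which acts with AGO7 to start processing of the TAS3 precursor, had 336.4, 552.1, 274.8 and 239.8 normalized read counts. miR828, the trigger for TAS4, had 100.4, 142.0, 45.0 and 36.5. Both were highest at 2 mM and lowest at 8 mM, a pattern that none of the mature forms of miR162, miR168 and miR403 showed. For miR390 the fold at 2 over 0 mM was 1.64 (1.41 to 1.91), but 1.19 under equal table totals. For miR828 the fold at 2 over 0 mM was 1.41 (1.06 to 1.90), but 1.03 under equal table totals. The intervals of the ratios to 0 mM at 4 and 8 mM overlapped, with 0.691 to 0.967 and 0.598 to 0.851 for miR390. For miR828 they were 0.310 to 0.645 and 0.242 to 0.540. miR393, which targets auxin receptor transcripts, had between 13849 and 15619, and miR2118, a trigger at disease resistance transcripts, had between 22.7 and 50.8. The abundant disease resistance families differed, with ratios to 0 mM of 1.64, 2.09 and 1.73 for miR472, 0.929, 1.03 and 0.891 for miR482, and 1.78, 1.55 and 1.10 for miR1448. Under equal table totals miR472 kept its direction, with smaller ratios of 1.19, 1.41 and 1.31. miR482 at 4 mM and miR1448 at 8 mM turned to ratios of 0.698 and 0.833. miR482 was then 0.675 and 0.674 at 2 and 8 mM, and miR1448 was 1.29 and 1.05 at 2 and 4 mM. miR393 turned at 2 and 8 mM, from 1.03 and 1.01 to 0.750 and 0.763, and its ratio at 4 mM was 0.618. miR2118 turned at 4 and 8 mM, from 1.21 and 1.02 to 0.816 and 0.770.

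Likeness of profile was measured as the Euclidean distance between log2 levels, centred over the 4 libraries, among the 175 other sequences whose mean reached 100 normalized read counts. Nearest to ptc-miR162a were ptc-miR477a-3p_1ss13GA (distance 0.149), ptc-miR475a-3p (0.202) and ptc-MIR156f-p3 (0.237), where the median distance was 1.12. ptc-miR475a-3p had 13398, 24116, 22197 and 25494 normalized read counts, close to ptc-miR162a in level as well. Nearest to ptc-miR168a-5p were ptc-MIR159a-p5_1ss21AT (0.512), ptc-miR156a (0.514) and peu-MIR2916-p5_1ss5AG (0.592), where the median was 1.61. ptc-miR156a had 13095, 3211, 3264 and 5116, also high in the untreated library. Its values at 2 and 4 mM lay close together, and which of them is the lower depends on the scaling. The profile of ptc-miR168a-5p had no neighbour as near as those of the other 2 families. Nearest to ptc-miR403c-5p, the most abundant miR403 sequence, were ptc-miR393a-5p_R+1 (0.101), ptc-miR482c-3p (0.106) and ptc-miR1450_R-1 (0.149), where the median was 0.856. Each distance rests on 4 libraries and is a description only.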

How the data were processed

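Leaf small RNA libraries were measured at 4 doses, with 1 library per dose. The submitters' processing notes name bcl2fastq 1.8.4, and RNA of a treatment was mixed before sequencing, per the labels' protocols. Of the mapper, counter, build and annotation, the sources used here give none. The columns marked raw in their headers were taken as estimated counts, as the authors deposited them. The normalized columns are a signal on a linear scale, as deposited, and equal the raw value times 1.356, 0.986, 0.833 and 0.891 at 0, 2, 4 and 8 mM.

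Rows that repeat a sequence were summed: of 8 members in several rows, 8 then had whole counts within 0.002 reads in every library, against 1 when a single row was read. Estimated counts were rounded to whole reads for intervals only. Folds are plain ratios of normalized values with exact conditional binomial 95% intervals, and ratios within a library use the same interval. Changes of such ratios have exact conditional odds ratio intervals. Shares have Wilson intervals. Counts past 2-fold use log2(value + 1), on which low sequences differ by less than their plain ratio, and keep sequences whose mean is 10 or more. A listed 0 was set to 3 counts for the stated folds of sequences listed at 0, or 4.07, 2.96, 2.499 and 2.67 on the normalized scale in dose order. End variants and strand pairing were found by alignment without gaps. The text names all members, the 3 nearest profiles of the most abundant sequence of each family, and the family totals of the listed small RNA families.

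Members and lists were chosen with earlier results of these data known. Python 3.11.15, NumPy 2.4.6 and SciPy 1.17.1 were used. The procedure was tested on simulated counts that held counting error only. Variation among plants or from PCR was not simulated, so that test cannot speak to it.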

Additional observations from a re-analysis of the deposited data

How the results depend on the processing

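Values below are log2 ratios to 0 mM unless named otherwise, and causes were not tested. Equal table totals lower every log2 ratio by a fixed amount per dose (shifts of -0.46, -0.57 and -0.40 at 2, 4 and 8 mM). They put miR162 at 0.52, 0.40 and 0.55, miR168 at -1.84, -2.34 and -1.34, and miR403 at -0.50, -0.41 and -0.13, which turned the direction of miR403 at 4 and 8 mM. They gave 2 members at least 2-fold higher at 4 mM in place of 4. Median-of-ratios size factors kept the direction of the 9 family totals and 5 of 6 counts, and gave 2 members at least 2-fold higher at 2 mM in place of 3, with ptc-miR162a at a log2 ratio of 0.98. The most abundant sequence alone gave miR168 -1.83 and -0.88 at 4 and 8 mM, and miR403 0.082, -0.030 and 0.18 at 2, 4 and 8 mM, with the direction turned at 2 and 4 mM from -0.040 and 0.16. The mature arm alone, chosen after seeing the data, gave miR168 -1.83 and -0.88 at 4 and 8 mM, and miR403 -0.22, 0.43 and 0.42. A single row per sequence gave miR403 0.022 at 2 mM, a turned direction, and 0.060 at 4 mM. It put the mature arm at 17.7%, 15.1%, 23.3% and 20.7% of miR403 reads in dose order, since ptc-miR403a has 3 rows and ptc-miR403c-5p has 1, and at 86.5% of miR168 reads at 0 mM. A mean of at least 50 left 8 members, of which 1, 0 and 0 were at least 2-fold higher at 2, 4 and 8 mM and 2 lower at 8 mM. Without the filter 2 were higher at 8 mM, and a pseudocount of 5 gave 2 higher at 4 mM. A filter on the mean without the highest library, also chosen after seeing the data, left out ptc-MIR403b-p5 and gave 5, 5 and 3 lower at 2, 4 and 8 mM. No paired analysis was possible because each dose had 1 library. Depth limits the forms with few reads, such as ptc-MIR403b-p5 and aau-miR168_L-3R-1_1ss22AT, whose intervals span several-fold.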
